A study of Oryza sativa with 6 samples.

Results

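The CCCH zinc finger genes of rice were followed in embryonic axes of mature seeds (cultivar Nipponbare) that had been aged at 40 °C or at 45 °C, with 3 Affymetrix Rice Genome Arrays per temperature. Genes were taken as members when the symbol or a synonym began with OsC3H and a number, and probe sets when the platform annotation assigned them to exactly 1 such gene. This gave 70 probe sets of 50 genes, out of 22436 probe sets with 1 gene and 17905 genes in all. A further 3 OsC3H genes of the name table, OsC3H38 (also named U2AF35B), OsC3H56 and OsC3H67, had no probe set assigned. Both groups shared the whole treatment except the temperature of the warm step. Per the labels' protocols, seeds were equilibrated at 25 °C and a relative humidity of 85% for 3 days, kept at that humidity and at 40 °C or 45 °C for 14 days (15 in a second label field), and dried back at 25 °C and a relative humidity of 32% for 3 days. Controlled deterioration of this kind is used to mimic seed ageing, and the comparison asks which transcripts differ between the milder and the harsher temperature. A group at 25 °C that the labels mention was not analysed here, so no level before ageing stands beside the values.

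CCCH zinc finger proteins carry 1 or more small folds in which 3 cysteines and 1 histidine hold a zinc ion. Unlike most zinc finger families, many of them bind RNA rather than DNA, and members take part in splicing, in cleavage and polyadenylation, and in the decay of messenger RNA, while plant members with tandem fingers gather in cytoplasmic RNA granules during stress. In Arabidopsis, the CCCH protein SOMNUS holds back light-dependent seed germination through abscisic acid and gibberellin metabolism. A dry seed makes little new RNA, so that its transcripts are largely those stored during maturation.

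The values are log2 expression values made with GCRMA, a method that corrects background, normalizes between arrays and summarises each probe set. A probe set was tested with limma when its 6 arrays averaged 4 or more, called the expression minimum here. All 22214 tested probe sets together had a median log2 change (45 °C minus 40 °C) of -0.17. With median centring of the arrays this common shift was 0.09, with quantile normalization it was 0.01, and with no expression minimum it was 0.08. Changes are therefore also given relative to it. One array stood apart, replicate 2 at 40 °C: its rice control transcripts read 2.99 log2 units higher at their 3-prime than at their 5-prime probe sets, a gap that widens in degraded RNA, and the other arrays had 1.66 to 2.03. Transcripts that mark embryo and aleurone were tested in all 10 of their probe sets, with array medians of 12.66 to 12.90. The symbol list for starchy endosperm reached the expression minimum in 17 of 30 probe sets. Of these, 13 were higher by value at 45 °C and 4 were lower (23.5%, against 64.4% of all tested). Their median change was 0.23, or 0.40 above that of all tested. The 17 probe sets came from 11 genes, and 0 had an unadjusted limma p under 0.05, against 19.2% of all tested. Matching was by symbol alone, and it also caught genes that are not endosperm markers. Examples are GLB1A and GLB1B, with the locus symbols NSHB1 and NSHB2, all under the minimum. The roles of the other matches were not checked. The part of endosperm transcripts in the values of the family was not tested. Markers of leaf reached the minimum in 4 of 13, with leaf medians of 5.82 to 5.97 at 40 °C and of 4.75 to 5.86 at 45 °C. Of these 4, 2 were lower and 2 higher by value at 45 °C. Groups did not overlap in PSA, with a log2 change of -1.17 ± 0.41 (SE), nor in LHCP, with 0.57 ± 0.21 (SE). In tissue samples such as these, fewer cells of a type and less RNA per cell cannot be told apart.

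Most of the family was measurable in the aged axes. Of the 50 genes, 40 had at least 1 probe set at the expression minimum, which made 50 tested probe sets. In 49 of these every array was at 4 or above, and no tested probe set had a group mean under the minimum. The tested values had means between 4.75 and 11.87. In 10 genes no probe set reached the minimum: OsC3H1, OsC3H3, OsC3H4, OsC3H9, OsC3H23, OsC3H34, OsC3H43, OsC3H47, OsC3H50 and OsC3H54. OsC3H47, which is known to raise drought tolerance when overexpressed in rice, had mean values of 1.91 at 40 °C and 2.05 at 45 °C. OsC3H50 was the 1 untested probe set with a group mean above the minimum, 4.30 at 40 °C against 3.40 at 45 °C, and its values were 5.18, 3.57 and 4.15 at 40 °C and 3.01, 3.71 and 3.48 at 45 °C. These groups overlap. Another 10 untested probe sets belonged to 8 genes that were tested through a different probe set.

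With the limma p adjusted over all tested probe sets (Benjamini-Hochberg, threshold 0.05), 0 of 50 OsC3H probe sets passed, as did 0% of all tested, and the smallest adjusted p in the family was 0.148. At an unadjusted limma p under 0.05 there were 7 of 50 OsC3H probe sets, or 14%, against 19.2% of all tested probe sets. Of these, 6 were lower at 45 °C (12%, against 13.8% of all tested) and 1 was higher (2%, against 5.37%). In this fit the shares of small p were thus not above the background. The lower share exceeded it in some alternatives, such as the replicate block (16%, against 12.1%). Without replicate 3 at 45 °C it was 18%, against 11.5%, and in other alternatives it lay below. The balance of directions turned with median centring, which left 1 probe set lower (2%, against 4.83%) and 4 higher (8%, against 14.7%). The means of 38 of the 50 probe sets were lower at 45 °C, which is 76%, where 64.4% of all tested were lower. This count depended on scaling: it was 26 (52%, against 42.4%) with median centring, and 27 (54%) with quantile normalization (against 49%) or cyclic loess (against 51.5%). With an expression minimum of 6 it was 34 of 45, or 75.6% against 74.2%. The 40 °C and 45 °C arrays did not overlap in 13 OsC3H probe sets (26%, against 28.7%), of which 12 were lower at 45 °C (24%, against 17.8%) and 1 was higher (2%, against 10.8%).

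At the expression minimum of 4, the median log2 change of the 50 probe sets was -0.29, which is -0.12 relative to all tested, and the central part of the family ran from -0.51 to -0.01 (quartiles), against -0.48 to 0.16 for all tested. Relative to the common shift, 29 probe sets were below and 21 above. At a minimum of 6 the family median relative to all tested was -0.01, with 45 members tested. The family median was -0.04 after median centring and -0.06 after quantile normalization or cyclic loess. Without replicate 2 at 45 °C the family median was -0.15 and its value relative to all tested was 0.006. Among members with a mean between 6 and 7, the 12 probe sets had a median change of -0.49, against -0.26 for all 3729 probe sets of that level. The 13 members between 7 and 8 had a median of -0.275, against -0.254 for 3280. The 16 members between 8 and 10 had a median of -0.08, against -0.20 for 3953. Levels not given here held 1 to 4 members each. No test was made of these medians, since members vary together.

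**Figure D1:**
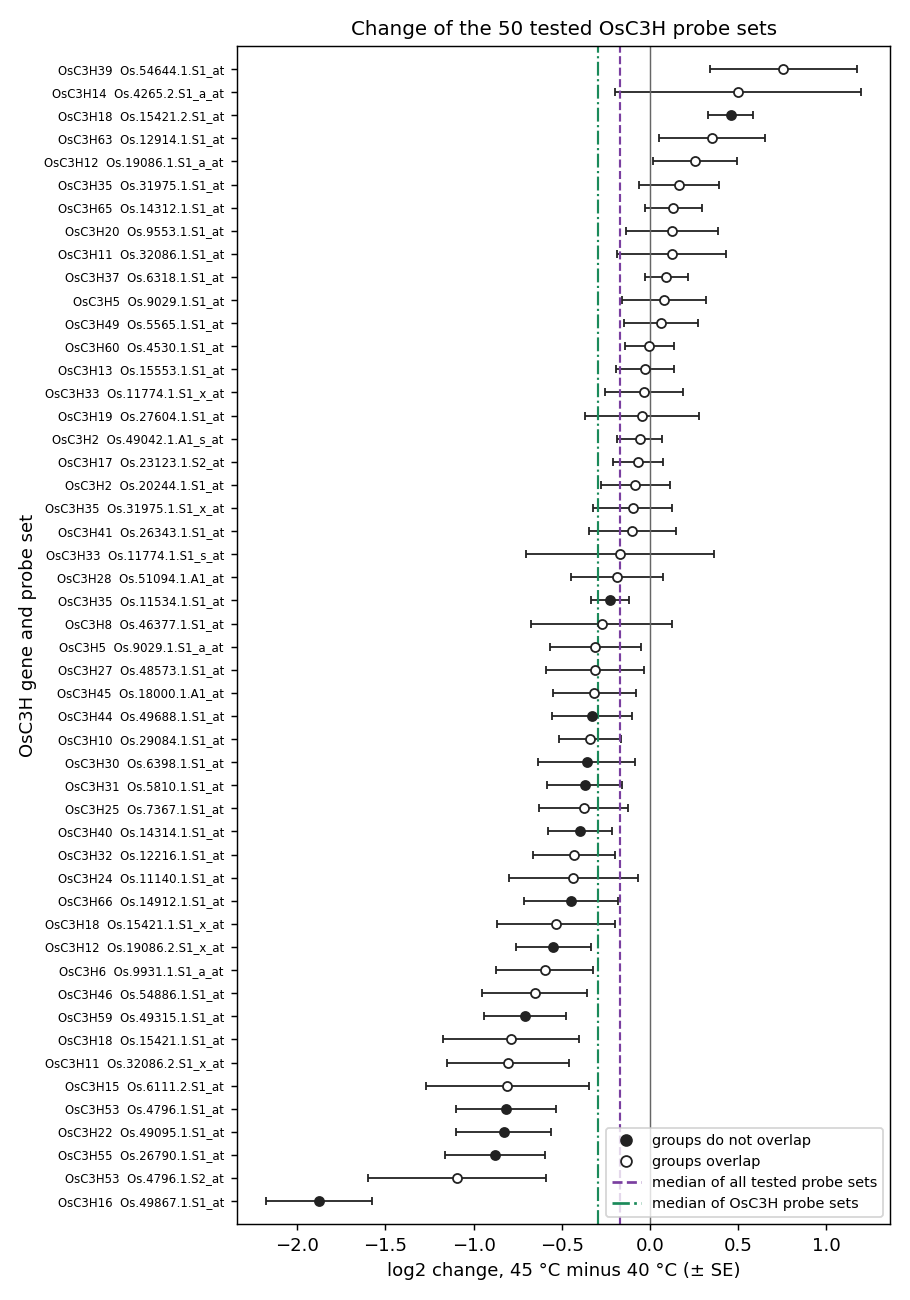
Log2 change (45 °C minus 40 °C, x axis) of each of the 50 tested OsC3H probe sets (y axis), as points with standard errors from limma; filled points are probe sets in which the 3 arrays at 40 °C and the 3 at 45 °C do not overlap, and vertical lines mark 0, the median of all tested probe sets (-0.17) and the median of the OsC3H probe sets (-0.29). OsC3H16 stands at the lower end at -1.87, and OsC3H39 at the upper end at 0.76 with overlapping groups.

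OsC3H16 (LOC4329674, probe set Os.49867.1.S1_at) had the largest difference of the tested family members. Its log2 values were 6.93, 7.38 and 6.68 at 40 °C and 4.97, 5.51 and 4.90 at 45 °C. Every array at 45 °C was below every array at 40 °C, and the gap between the groups was wider than either group's range. The means were 7.0 ± 0.35 (SD, n = 3) and 5.12 ± 0.33 (SD, n = 3). The log2 change was -1.87 ± 0.30 (SE), which means a 3.67-fold higher signal at 40 °C. The 95% interval of the log2 change ran from -2.57 to -1.18, and relative to the common shift the change was -1.71. The adjusted limma p was 0.148, so the difference did not pass over all probe sets tested. When arrays were weighted by quality (0.336 for replicate 2 and 3.74 for replicate 3 at 40 °C), the log2 change was -1.68 and the adjusted limma p 0.0404, while over all alternatives the adjusted p ranged from 0.0404 to 0.359. Leaving out 1 array in turn gave log2 changes of -2.07 to -1.68, and the further normalizations gave -1.67 to -1.62. This is the sole probe set of the gene on the array.

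Probe sets of OsC3H55, OsC3H22, OsC3H53 and OsC3H59 were also lower at 45 °C without overlap, each at an unadjusted p under 0.05 and none past the adjusted threshold. For OsC3H55 (Os.26790.1.S1_at) the values were 5.96, 5.97 and 6.22 at 40 °C and 5.30, 4.75 and 5.46 at 45 °C. The log2 change was -0.88 ± 0.28 (SE), or -0.71 relative to the common shift, with an adjusted limma p of 0.199. The gene's other probe sets, Os.32689.1.S1_at and Os.51779.1.S1_at, did not reach the expression minimum and had group means of 3.58 and 3.43 at 40 °C and of 3.10 and 2.28 at 45 °C, lower at 45 °C in both, with overlapping groups.

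For OsC3H22 (Os.49095.1.S1_at) the values were 7.84, 7.23 and 8.07 at 40 °C and 7.03, 6.70 and 6.93 at 45 °C, a log2 change of -0.83 ± 0.27 (SE). Replicate 2 was the lowest array within each group, and replicate 2 at 40 °C exceeded the highest 45 °C array by little. The next protein-coding gene in the RefSeq assembly ASM3414082v1 is a family member too, OsC3H23, whose probe set stayed between 1.66 and 2.11 on all arrays, under the expression minimum. OsC3H22 was thus the 1 gene of this neighbouring pair that could be tested.

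OsC3H53 was measured by a pair of tested probe sets that pointed the same way. In Os.4796.1.S1_at the values were 5.2, 5.34 and 4.94 at 40 °C and 4.24, 4.0 and 4.80 at 45 °C, a log2 change of -0.82 ± 0.28 (SE). In Os.4796.1.S2_at they were 5.46, 6.67 and 5.68 at 40 °C and 3.87, 5.10 and 5.55 at 45 °C, a log2 change of -1.09 ± 0.50 (SE) with overlapping groups. Both lie close to the expression minimum at 45 °C, with means of 4.35 and 4.84, so that the size of the change is uncertain. The third probe set, Os.56196.1.S1_at, was under the minimum at both temperatures, with means of 1.93 and 2.36.

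For OsC3H59 (Os.49315.1.S1_at) the values were 6.65, 6.94 and 6.58 at 40 °C and 5.91, 6.14 and 5.99 at 45 °C. The spread within a group was small, with SDs of 0.19 and 0.12 (n = 3 each), and the log2 change was -0.71 ± 0.23 (SE), a signal 1.63-fold higher at 40 °C. Its adjusted limma p was 0.203. Relative to the common shift the change was -0.54, and after median centring it was -0.45.

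**Figure D2:**
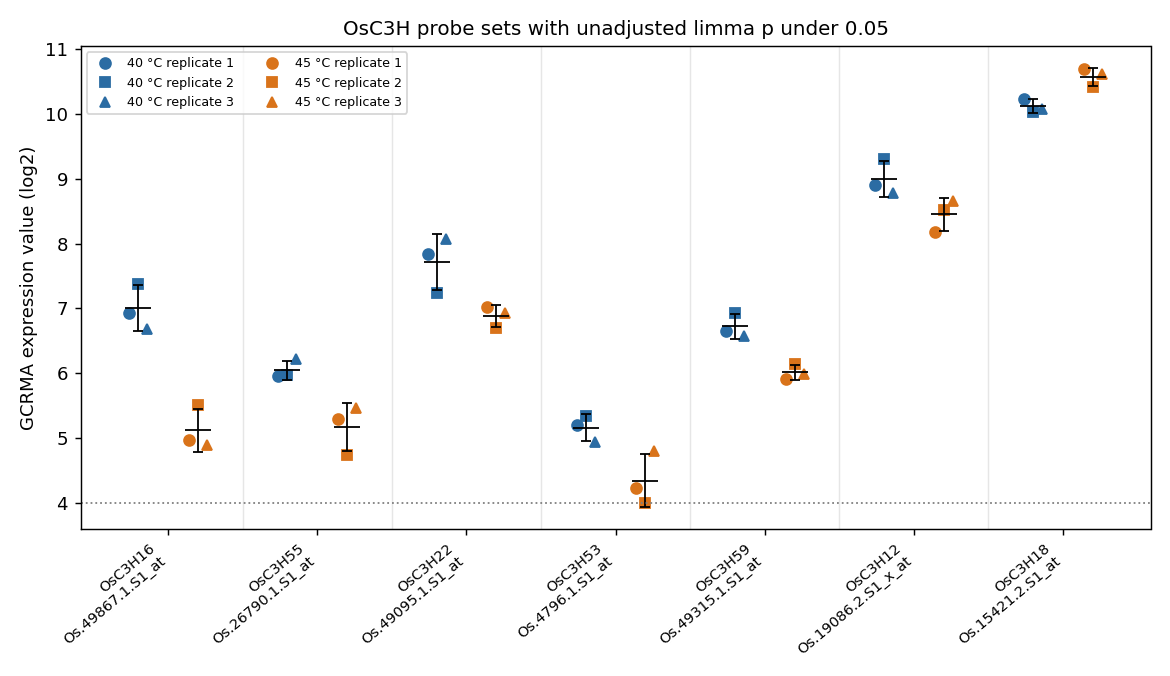
GCRMA log2 values (y axis) of the 7 OsC3H probe sets with an unadjusted limma p under 0.05, per array; colour gives the temperature, marker shape the replicate, black lines the mean ± SD (n = 3), and the dotted line the expression minimum of 4. In 6 probe sets all 45 °C arrays lie below all 40 °C arrays, and in that of OsC3H18 they lie above.

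OsC3H18 (LOC4330984) was the family member with a small p toward higher levels, and its probe sets disagreed. In Os.15421.2.S1_at the values were 10.23, 10.03 and 10.08 at 40 °C and 10.69, 10.42 and 10.61 at 45 °C. All 45 °C arrays were above all 40 °C arrays, with a log2 change of 0.46 ± 0.13 (SE), a 95% interval of 0.16 to 0.75 and an adjusted limma p of 0.179. The change was 0.40 to 0.53 when 1 array was left out, and 0.61 to 0.71 after the further normalizations.

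The other tested probe sets of OsC3H18 were lower by value at 45 °C. Os.15421.1.S1_at had values of 7.26, 7.62 and 6.56 at 40 °C and of 6.60, 5.71 and 6.76 at 45 °C. Os.15421.1.S1_x_at had 6.89, 7.54 and 6.59 at 40 °C and 6.62, 6.01 and 6.79 at 45 °C. In both, replicate 2 was the highest array at 40 °C and the lowest at 45 °C, and the groups overlapped. Their log2 changes were -0.79 ± 0.39 (SE) and -0.53 ± 0.33 (SE), with intervals that include 0. Both depended on replicate 2: without that array at 45 °C the changes were -0.47 and -0.30, and without that array at 40 °C they were -0.55 and -0.26. On single arrays, Os.15421.2.S1_at minus Os.15421.1.S1_at was 2.98, 2.41 and 3.52 log2 units at 40 °C and 4.09, 4.71 and 3.85 at 45 °C. No direction can therefore be given for the gene as a whole, and the transcript each probe set reads was not looked up here.

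Disagreement of this kind was seen in other members. Of the 8 genes with more than 1 tested probe set, 3 had probe sets of the same sign (OsC3H2, OsC3H33 and OsC3H53) and 5 did not (OsC3H5, OsC3H11, OsC3H12, OsC3H18 and OsC3H35). OsC3H12, known from rice as a positive factor in resistance to bacterial blight, had 8.91, 9.31 and 8.77 at 40 °C and 8.17, 8.51 and 8.66 at 45 °C in Os.19086.2.S1_x_at, without overlap, and a log2 change of -0.55 ± 0.21 (SE) with an adjusted limma p of 0.233, or of -0.29 after median centring. Its probe set Os.19086.1.S1_a_at had 7.81, 8.62 and 8.43 at 40 °C and 8.60, 8.38 and 8.64 at 45 °C, a change of 0.26 ± 0.24 (SE). A further pair under the minimum, Os.19086.1.S1_at and Os.19086.3.S1_at, had changes of 0.29 and 0.53. The suffixes _x_at, _s_at and _a_at mark probe sets that can read more than 1 transcript, so the values of Os.19086.2.S1_x_at may not belong to OsC3H12 alone.

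OsC3H11 had 8.01, 8.91 and 8.17 at 40 °C and 8.13, 7.03 and 7.51 at 45 °C in Os.32086.2.S1_x_at, a change of -0.81 ± 0.35 (SE). Its other probe set, Os.32086.1.S1_at, had 8.38, 9.58 and 8.95 at 40 °C and 9.34, 8.79 and 9.16 at 45 °C, a change of 0.12 ± 0.31 (SE). Groups overlapped in both.

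In OsC3H5, Os.9029.1.S1_a_at had values of 7.18, 6.80 and 7.13 at 40 °C and of 6.37, 6.77 and 7.04 at 45 °C, with a change of -0.31 ± 0.26 (SE). Its partner Os.9029.1.S1_at had 6.64, 6.27 and 6.63 at 40 °C and 6.72, 6.41 and 6.64 at 45 °C, a change of 0.08 ± 0.24 (SE). The first change was little larger than its error, and the second was smaller than its error.

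OsC3H35 had 11.30, 11.43 and 11.19 at 40 °C and 11.12, 10.98 and 11.14 at 45 °C in Os.11534.1.S1_at. The groups did not overlap, but the change was small, -0.23 ± 0.11 (SE), and within 0.06 of the common shift. Its other probe sets, Os.31975.1.S1_at and Os.31975.1.S1_x_at, had changes of 0.16 ± 0.23 (SE) and -0.10 ± 0.22 (SE). Their values ranged from 8.11 to 8.55 and from 8.49 to 9.01 at 40 °C, and from 8.08 to 8.70 and from 8.46 to 9.04 at 45 °C.

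**Figure D3:**
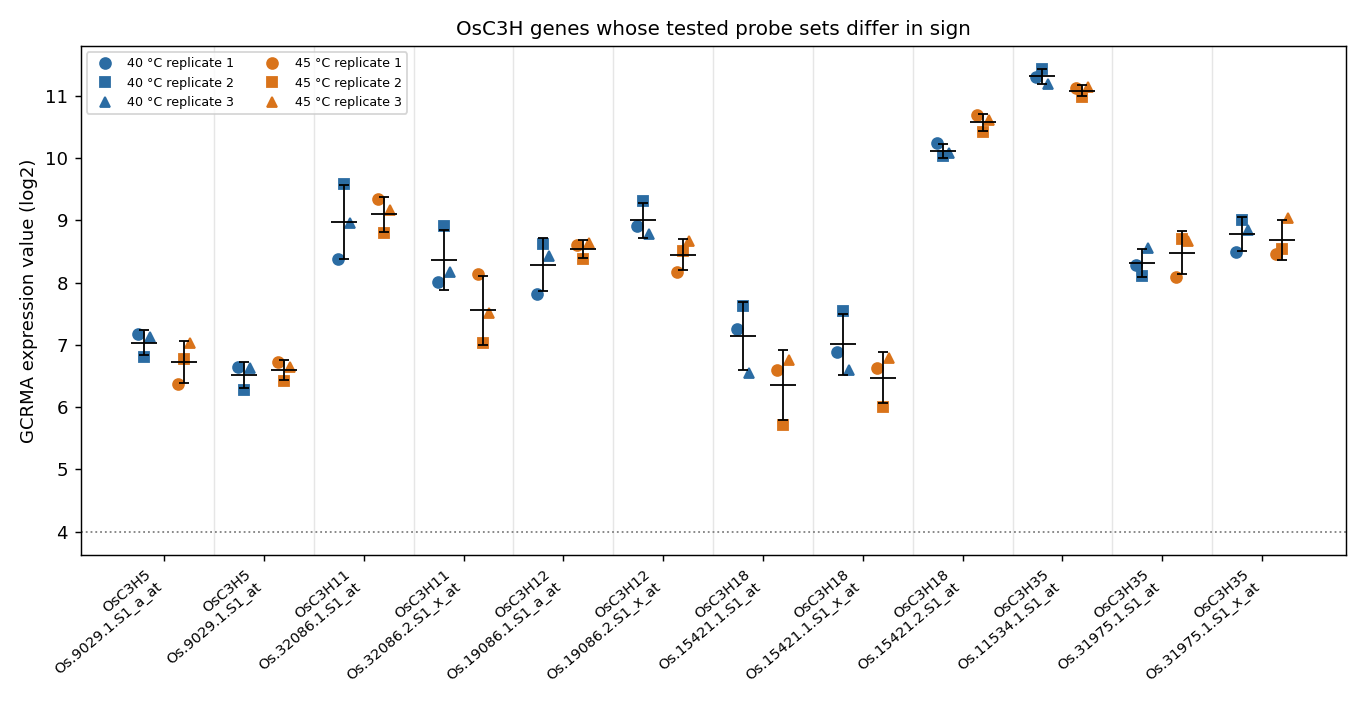
GCRMA log2 values (y axis) per array for all tested probe sets of the 5 OsC3H genes whose probe sets differ in sign; colour gives the temperature, marker shape the replicate, black lines the mean ± SD (n = 3), and the dotted line the expression minimum of 4. For OsC3H18, the probe set near 10 is higher at 45 °C while the pair near 7 is lower by value.

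Among members with a known part in RNA processing, OsC3H60 is also named U2AF35A, the small subunit of the U2 auxiliary factor, which recognises the end of an intron. Its values were 9.13, 9.02 and 9.17 at 40 °C and 9.12, 9.17 and 9.03 at 45 °C. The arrays of both groups covered the same narrow range, and the log2 change was 0.00 ± 0.14 (SE), with a 95% interval of -0.32 to 0.32. The large subunit with which it pairs had a change of -0.14 ± 0.17 (SE) in U2AF65A and of -0.48 ± 0.17 (SE) in U2AF65B, where the adjusted limma p was 0.214, and the difference between subunits was not tested.

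Other members with a known role had intervals that include 0. OsC3H2, also named OsDOS and known to delay leaf senescence in rice, had 11.98, 11.65 and 12.05 at 40 °C and 11.94, 11.73 and 11.83 at 45 °C in Os.49042.1.A1_s_at. Its change there was -0.06 (95% interval -0.36 to 0.24), and it was -0.08 in Os.20244.1.S1_at (-0.54 to 0.37). OsC3H20, also named Ehd4, an activator of flowering in rice, had 6.22, 6.16 and 6.30 at 40 °C and 6.01, 6.68 and 6.36 at 45 °C, a change of 0.12 (-0.48 to 0.73). OsC3H41, also named MKRN after the makorin family of RING-type ubiquitin ligases, had means of 7.78 ± 0.27 (SD, n = 3) and 7.67 ± 0.33 (SD, n = 3), a change of -0.10 (-0.67 to 0.47).

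OsC3H46 is LIC, a regulator of brassinosteroid responses and leaf angle in rice. Its values were 6.61, 6.92 and 7.25 at 40 °C and 6.14, 5.95 and 6.71 at 45 °C, a change of -0.65 ± 0.30 (SE) with an adjusted limma p of 0.278, and the highest 45 °C array lay above the lowest 40 °C array. OsC3H10, known to raise drought tolerance in rice when overexpressed, had 9.44, 9.91 and 9.60 at 40 °C and 9.19, 9.21 and 9.53 at 45 °C. Its change was -0.34 ± 0.18 (SE), with overlapping groups.

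Toward higher values the largest change of the tested probe sets was that of OsC3H39 (Os.54644.1.S1_at), with 4.77, 5.23 and 4.65 at 40 °C and 6.55, 5.23 and 5.14 at 45 °C. Replicate 1 at 45 °C alone stood far above the rest, and the change of 0.76 ± 0.42 (SE) had an interval of -0.22 to 1.73. In OsC3H14 (Os.4265.2.S1_a_at), values were 9.10, 6.51 and 9.09 at 40 °C and 8.45, 9.48 and 8.27 at 45 °C. Its SE of 0.70 was the largest of the tested probe sets and its change 0.50. The sign of this change rested on 1 array, since replicates 1 and 3 at 40 °C both lay above the 45 °C mean of 8.73. The low value fell on replicate 2 at 40 °C, the array with the widest 3-prime minus 5-prime difference, 2.99. On that array the 17 tested probe sets of the endosperm list had a median of 7.14, while replicates 1 and 3 had 8.70 and 8.97. At 45 °C these medians were 7.94, 9.14 and 9.19 in replicates 1 to 3. The summed signal of all 30 probe sets of the endosperm list ran from 12.84 to 13.40 at 40 °C and from 12.74 to 13.69 at 45 °C on the log2 scale. Of these probe sets 13 were under the expression minimum. The part of endosperm transcripts or of RNA quality in the values of OsC3H14 was not tested. OsC3H37 (Os.6318.1.S1_at) had 11.32, 11.03 and 11.30 at 40 °C and 11.21, 11.43 and 11.29 at 45 °C, a change of 0.09 ± 0.12 (SE) with overlapping groups.

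A further 5 probe sets did not overlap between temperatures and were lower at 45 °C, with an unadjusted limma p above 0.05. Their log2 changes were -0.45 in OsC3H66, -0.40 in OsC3H40, -0.37 in OsC3H31, -0.36 in OsC3H30 and -0.33 in OsC3H44. In OsC3H40 the values were 9.65, 10.30 and 9.92 at 40 °C and 9.64, 9.46 and 9.58 at 45 °C, so that the groups nearly touched. In OsC3H66 they were 6.38, 6.57 and 6.92 at 40 °C and 5.88, 6.29 and 6.35 at 45 °C, again with a narrow gap. Changes of this size were within 0.28 of the common shift.

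The tested members that remain all had overlapping groups. Lower by value were OsC3H15 (-0.81), OsC3H6 (-0.60), OsC3H24 (-0.44), OsC3H32 (-0.43), OsC3H25 (-0.38), OsC3H45 (-0.32), OsC3H27 (-0.31) and OsC3H8 (-0.27), as log2 changes. Between -0.2 and 0.2 lay OsC3H28 (-0.19), both probe sets of OsC3H33 (-0.17 and -0.03), OsC3H17 (-0.07), OsC3H19 (-0.05), OsC3H13 (-0.03), OsC3H49 (0.06) and OsC3H65 (0.13). OsC3H63 had a change of 0.35. The spread decided how far such values could be read: in OsC3H15 the values were 6.83, 7.55 and 6.72 at 40 °C and 6.61, 5.21 and 6.85 at 45 °C, so that 1 array, replicate 2 at 45 °C, carried most of the difference. SEs over the 50 tested probe sets ranged from 0.11 to 0.70, with a median of 0.25.

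The same arrays tended to hold the extremes. Replicate 2 at 40 °C held the highest of the 6 values in 26 of 50 OsC3H probe sets, or 52%, against 34.1% of all tested probe sets. Replicate 2 at 45 °C held the lowest value in 20 of 50, or 40%, against 22.3%. The family medians followed, with 7.62, 7.80 and 7.72 at 40 °C and 7.59, 7.32 and 7.59 at 45 °C. All 3 medians at 40 °C were above all 3 at 45 °C, but replicate 1 at 40 °C was nearly equal to replicates 1 and 3 at 45 °C. Without replicate 2 at 45 °C, 33 of 50 probe sets were lower at 45 °C (66%, against 62.7% of all tested in the same fit), in place of 38. At an unadjusted limma p under 0.05, 3 were then lower (6%, against 11.2%), in place of 6. Without replicate 2 at 40 °C these counts were 36 (72%, against 62.6%) and 5 (10%, against 14.1%). The 3-prime minus 5-prime difference was 2.99 on replicate 2 at 40 °C but 1.66, the lowest, on replicate 2 at 45 °C. Its part in the family's values was not tested.

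**Figure D4:**
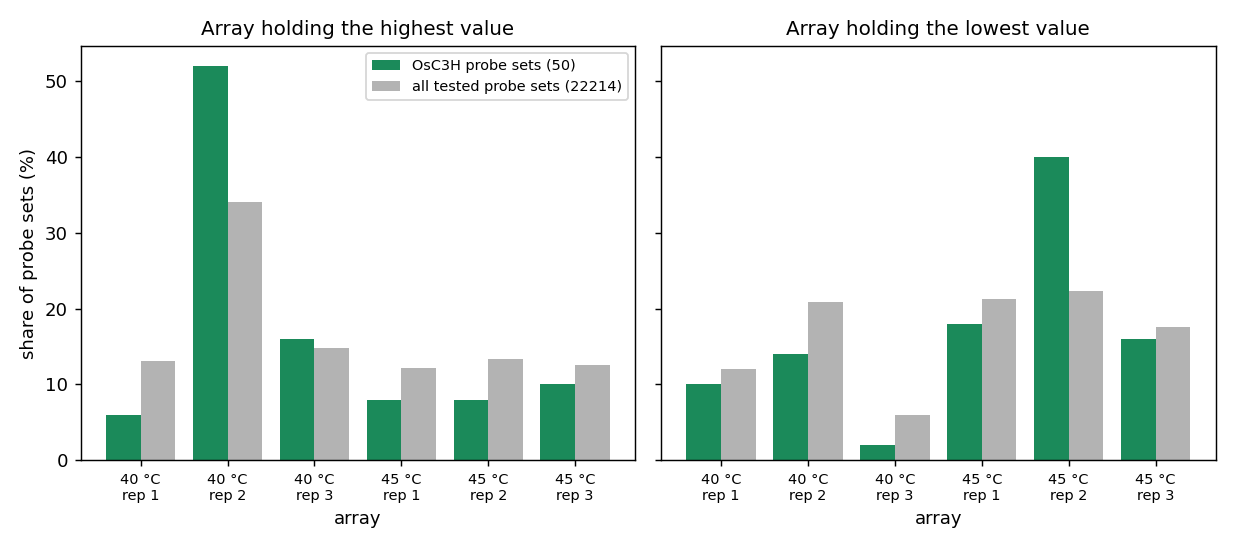
Share of probe sets (y axis, percent) whose highest value (left) or lowest value (right) fell on each of the 6 arrays (x axis), for the 50 tested OsC3H probe sets and for all 22214 tested probe sets. Replicate 2 at 40 °C holds 52% of the family's highest values, and replicate 2 at 45 °C 40% of its lowest.

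None of the genes listed by symbol for related functions passed the adjusted threshold either. Of 11 tested probe sets for 7 splicing genes (U2AF65A, U2AF65B, PRP19, SC34 and the RSZ genes for arginine- and serine-rich splicing proteins), 9 were lower at 45 °C, with a median change of -0.18, and 3 had an unadjusted limma p under 0.05. These were SC34 (-0.48 ± 0.10 SE), RSZ23 (-0.54 ± 0.14 SE) and U2AF65B, and the smallest adjusted limma p was 0.163 in SC34. All 3 were lower, which is 27.3% of this narrowed list, against 13.8% of all tested. The full symbol pattern, which also caught other families, had 4 of 22 lower at that p, or 18.2%, with a median change of -0.22. In the list meant for the decay of messenger RNA, the symbol pattern found argonaute genes, which act with small RNAs, and PAB1, whose role was not checked. Of their 10 tested probe sets 9 were lower, with a median of -0.39. AGO4B had the smallest p, with a change of -1.05 ± 0.38 (SE) and an adjusted limma p of 0.218. It was the 1 probe set of this list at an unadjusted limma p under 0.05 (10%, against 13.8% of all tested). In the symbol list for abscisic acid and gibberellin genes, not restricted to signalling, 17 of 22 tested probe sets were lower, with a median of -0.29. Of these, 5 were at an unadjusted limma p under 0.05 (22.7%, against 13.8% of all tested). All 5 were SAPK genes and lower at 45 °C: SAPK1, SAPK2, SAPK7, SAPK9 and SAPK10. SAPK1 had the smallest p, with a change of -0.45 ± 0.12 (SE) and an adjusted limma p of 0.175. Toward higher values, SLR1, the rice DELLA repressor of gibberellin responses, had a change of 0.47 ± 0.27 (SE), with overlapping groups. The median of all tested probe sets, -0.17, is the level against which these medians stand. The counts lower stand against 64.4% of all tested, a share that depended on scaling and was 42.4% after median centring.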

How the data were processed

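Each of the 6 samples was hybridised to 1 array after amplification and biotin labelling of 50 ng of RNA, per the labels' protocols. Per the submitters' processing notes, GCRMA (no version stated) gave the deposited log2 values. Of 57258 non-control probe sets, 22214 averaged 4 or more and were tested for 45 °C minus 40 °C with limma 3.58.1 (R 4.3.3, lmFit, eBayes with trend), two-sided, with Benjamini-Hochberg adjustment over all of them and a threshold of 0.05. Precision is limited by the number of arrays. Since the labels do not say whether replicates are separate seed lots, the spread behind the p-values may be technical.

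Probe sets were named through the platform annotation and the gene name table of assembly ASM3414082v1, used for names and neighbours alone. No sequences were used, and start positions served only to order protein-coding genes for the neighbours. The family and the gene lists were chosen with earlier results of these data known. Lists were matched by symbol or synonym alone, and the splicing list was then narrowed by gene role. Values are printed for OsC3H16, OsC3H18, probe sets at an unadjusted p under 0.05, the 3 of highest and 3 of lowest mean, and genes whose probe sets differ in sign. OsC3H15, OsC3H50, OsC3H40, OsC3H66, OsC3H14 and members with a known role are further choices, some made after values were seen. In 10 simulated tables, 200 of 22214 probe sets were changed. This comparison then recovered 4.7% of the changes of 1 log2 unit and 53.1% of those of 2 units. It made 2.5 false calls a table. Recovery depends on the share of probe sets changed, which is not known for the data, so the rates hold for this setting alone.

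Replicate numbers are shared between groups, but same-numbered arrays did not deviate together (correlations 0.03, -0.14 and -0.04), so the model had no block. Extracted RNA was 53 to 68 µg at 40 °C and 42 to 56 µg at 45 °C (exact two-sided permutation p = 0.3, smallest possible 0.1). Alternatives were other expression minima, median centring, quantile normalization, cyclic loess, no trend, array weights, a replicate block, leaving out each array, and leaving out probe sets of shared targets.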

Additional observations from a re-analysis of the deposited data

How the results depend on the processing

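Of the 9 probe sets followed (those of OsC3H18 and the 6 lower at an unadjusted p under 0.05), 5 had 15 alternative values each and 4 had 14, since the minimum of 6 leaves out those of OsC3H53 and OsC3H55, and the alternative without shared targets those of OsC3H12 and 1 of OsC3H18. Direction was kept in 131 of 131 values, but much of this was fixed in advance. Other minima, no trend, the replicate block and leaving out shared targets do not alter the log2 change of a probe set. Where groups do not overlap, leaving out 1 array cannot turn the sign. The adjusted threshold was passed by 1 value, that of OsC3H16 with array weights. The number of OsC3H probe sets past the adjusted threshold was 1 with array weights, lower at 45 °C, where 193 of all probe sets passed, and 0 otherwise; leaving out 1 array gave 0 to 69 over all probe sets, 69 without replicate 2 at 40 °C. At an unadjusted limma p under 0.05, 1 OsC3H probe set was lower at 45 °C after median centring (2%, against 4.83% of all tested). The count was 3 after quantile normalization (6%, against 6.71%) and 3 after cyclic loess (6%, against 8.09%). The leave-one-out fits at 45 °C gave 3 without replicate 2 (6%, against 11.2%) and 9 without replicate 3 (18%, against 11.5%), the lowest and highest counts. Those higher numbered 4 after median centring (8%, against 14.7%) and 3 without the expression minimum (4.29%, against 10.2%). They numbered 2 with array weights (4%, against 6.44%) and 1 in each leave-one-out fit (2%, against 3.49% to 4.34%). The family median was -0.0373 with arrays centred on their medians, -0.0626 with quantile normalization and -0.0627 with cyclic loess. Over the leave-one-out fits it ranged from -0.369 to -0.149, and relative to all tested from -0.173 to 0.006, the highest without replicate 2 at 45 °C. The median of all tested probe sets was 0.081 without the minimum, 0.0871 after median centring and 0.0122 after quantile normalization. With the replicate block, 8 OsC3H probe sets were lower at an unadjusted limma p under 0.05 (16%, against 12.1% of all tested). There 1 was higher (2%, against 3.69%), and no call changed. The cause of these changes was not tested. Signal near the expression minimum limits OsC3H53, OsC3H39 and OsC3H50.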
